A study of Homo sapiens with 29 samples.

Results

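The dystrophin-glycoprotein complex was followed through 8 of its genes in LHCN-M2 cells, a clonal line of human skeletal myoblasts immortalized with telomerase and CDK4. The genes were chosen as core parts of the complex, with the rise of DMD and DAG1 at 24 h already known from these data. The probes of each were found through their RefSeq accessions. They had 17 probes on the array, 16 of which were tested. All 8 genes had a tested probe, among 18398 genes with one. Cells received 20 nM ZNF148 siRNA (siZNF148) or nontargeting siRNA (siControl). In growth media the cultures were taken at 24 h, before confluence, and at 48 and 96 h, when confluent, and in differentiation media at 48 and 96 h. For differentiation experiments in general, the methods give a change of media 2 days after transfection. Whether the hours of these arrays ran from that change or from transfection is not settled by the sources used here, so that equal hours in both media may be unequal times since transfection. There were 29 one-colour Agilent arrays in 10 groups, with 3 arrays per group and 2 for siControl at 96 h in growth media, and the labels call the arrays of a group biological replicates.

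The complex joins the actin cytoskeleton of a muscle fiber to the extracellular matrix and protects the membrane from the strain of contraction. Dystrophin (DMD) binds actin inside the cell, dystroglycan (DAG1) spans the membrane and holds laminin outside, and the sarcoglycans (SGCA, SGCB, SGCD) sit beside dystroglycan. Dystrobrevin (DTNA) and the syntrophins (SNTB1) bind dystrophin in the cytoplasm and carry signaling proteins, and utrophin (UTRN), the autosomal relative of dystrophin, takes its place early in muscle development and at the synapse. Loss of dystrophin causes Duchenne muscular dystrophy, and loss of a sarcoglycan causes limb-girdle muscular dystrophy.

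The start regions of 3 of the genes are shown because these genes gave the earliest rise (DMD, DAG1) and the pattern most unlike the others (UTRN). They are RefSeq sequences of the GRCh38.p14 build, 250 bases upstream of a transcription start, with capitals for CANNTG (the E-box, the site of MYOD and myogenin) and for GGGGGG (ZNF148 is known to bind G-rich DNA), searched on both strands. The DMD region, chrX:33211550-33211799 on the minus strand, lies before the start of the muscle form of dystrophin. The DAG1 region is chr3:49469882-49470131 and the UTRN region chr6:144285085-144285334, both on the plus strand.
DMD: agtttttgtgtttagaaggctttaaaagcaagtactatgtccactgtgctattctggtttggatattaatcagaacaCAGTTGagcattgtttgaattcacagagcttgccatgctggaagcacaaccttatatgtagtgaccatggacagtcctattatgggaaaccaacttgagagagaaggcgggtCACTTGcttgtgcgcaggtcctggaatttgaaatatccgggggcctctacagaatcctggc
DAG1: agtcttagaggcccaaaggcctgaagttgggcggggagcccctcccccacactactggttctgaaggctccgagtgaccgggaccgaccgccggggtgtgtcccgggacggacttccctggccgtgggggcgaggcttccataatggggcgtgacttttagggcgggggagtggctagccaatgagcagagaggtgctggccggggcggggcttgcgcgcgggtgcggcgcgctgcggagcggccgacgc
UTRN: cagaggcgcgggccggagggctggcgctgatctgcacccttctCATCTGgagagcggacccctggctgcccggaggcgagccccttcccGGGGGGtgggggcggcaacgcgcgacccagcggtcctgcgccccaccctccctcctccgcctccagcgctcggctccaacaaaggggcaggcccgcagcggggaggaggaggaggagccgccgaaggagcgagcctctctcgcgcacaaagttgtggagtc
The DMD region held CANNTG at 2 places, the DAG1 region held neither motif, and the UTRN region held 1 of each. Among 35116 regions of the same length, 61.8% held CANNTG and 17.6% held GGGGGG. Over all listed starts, 5 of 7 for DMD, 0 of 2 for DAG1, 0 of 1 for SGCB, 1 of 1 for SGCD, 5 of 7 for DTNA and 2 of 2 for UTRN held CANNTG, while GGGGGG was found at 1 DTNA and 1 UTRN start. These are matches of letters and not measured binding.

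All values are the authors' quantile-normalized log2 signals, and a change is siZNF148 minus siControl on that scale. The probe of each gene with the highest mean signal stands for it, and each of these 8 probes was well above background on all 29 arrays and saturated on none. Calls required more than a 2-fold change and an adjusted p (Benjamini-Hochberg, over the 38714 probes of 1 limma fit) below 0.05. ZNF148 itself fell by 1.53 at 24 h, by 2.08 and 2.30 at 48 and 96 h in growth media, and by 2.34 and 2.74 in differentiation media, without overlap between arrays. The labelled cell type was checked with myoblast genes, of which MYOD1, MYF5, DES, CDH15 and NCAM1 were well above background on all 29 arrays and PAX7 on 20. One array, siControl replicate 1 at 48 h in growth media, stood apart, with a mean of 14.82 over 6 myotube genes against 7.52 and 7.50 on the other 2 arrays of its group. It is counted in all values below unless it is said to be left out. The fit takes 1 spread per probe over all 10 groups. In genes where this array stands apart, it also widens the intervals of comparisons that do not use it.

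**Figure D1:**
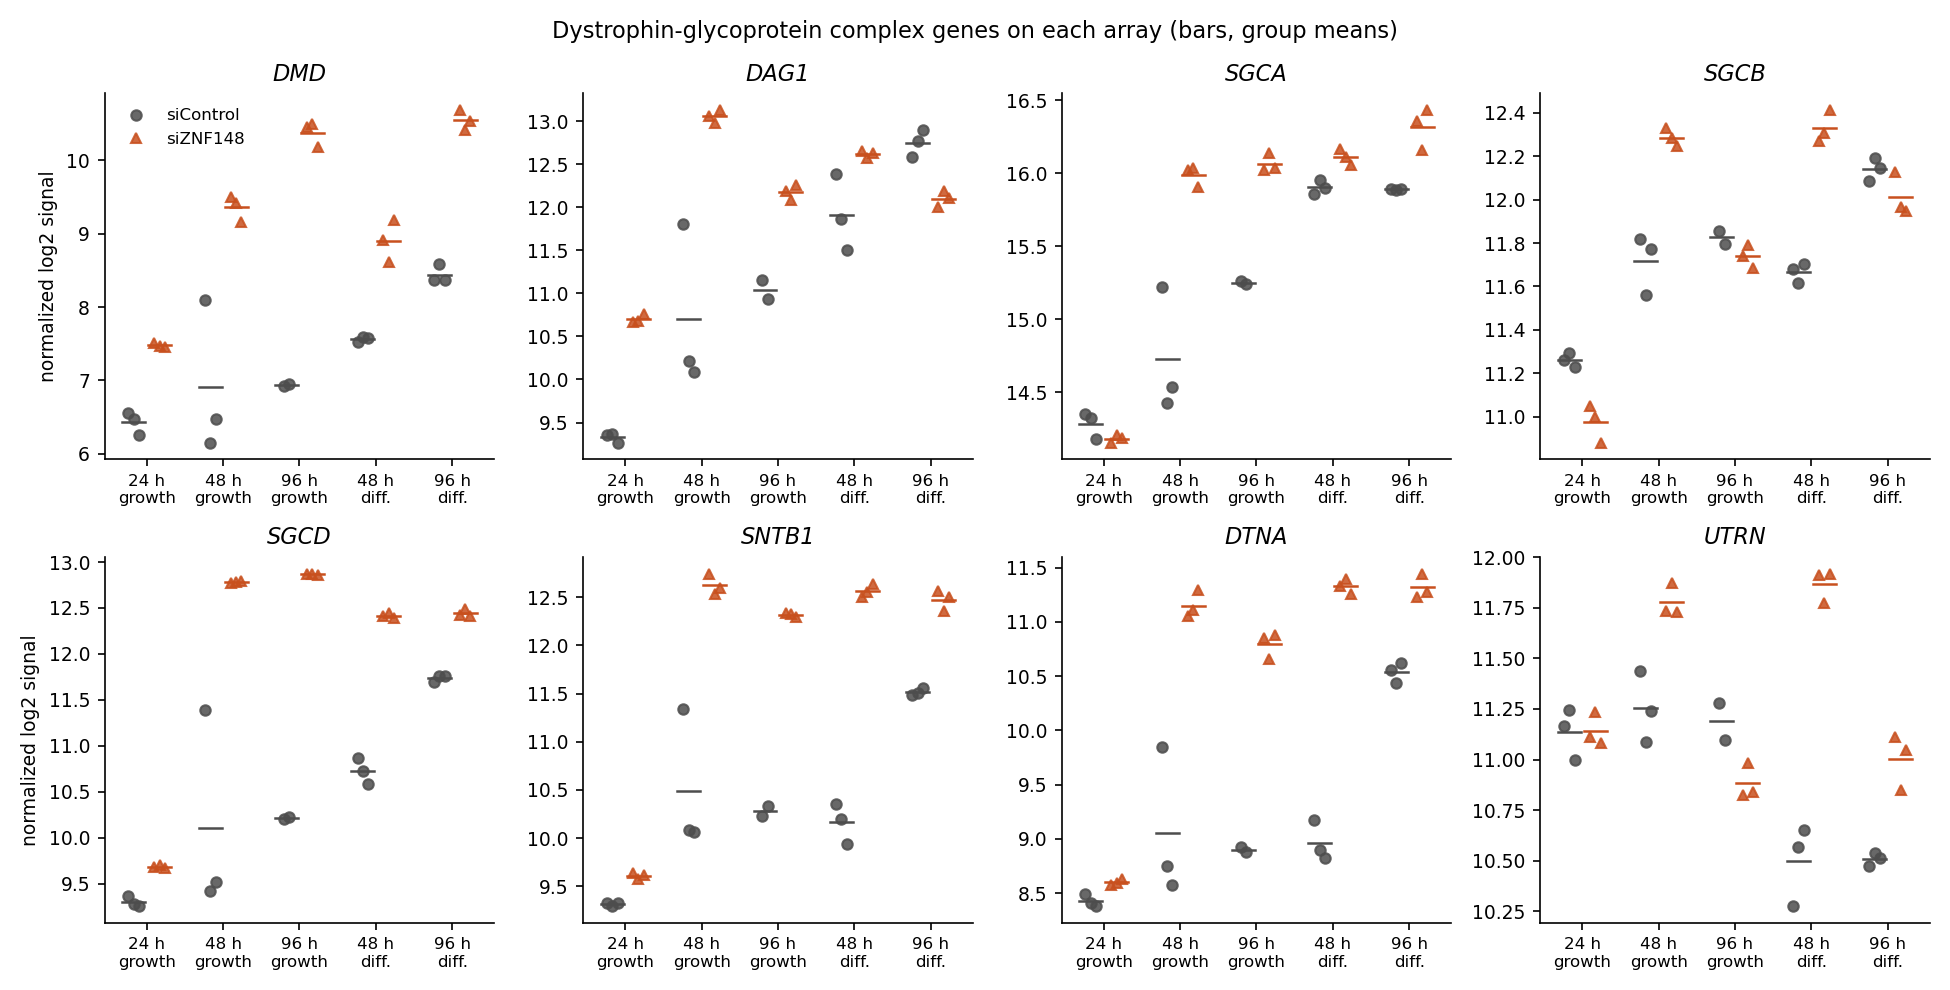
Normalized log2 signal (vertical axes) of each complex gene on each of the 29 arrays, by time and media (horizontal axes); circles are siControl, triangles siZNF148, and short bars group means. DMD at 96 h in growth media lies between 6.92 and 6.95 in siControl and between 10.18 and 10.50 in siZNF148, whereas UTRN differs most at 48 h in differentiation media; the high siControl circle at 48 h in growth media is replicate 1.

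At 24 h, 2 of the 8 genes were called higher, DMD and DAG1, where 2.45% of all genes tested were called higher and 3.04% lower, and none of the 8 was called lower. As the rise of these 2 genes was known when the 8 were chosen, their count beside that share is no test. The siControl arrays gave DMD at 6.56, 6.48 and 6.26, and the siZNF148 arrays at 7.51, 7.47 and 7.45. DMD thus rose in each of 3 siZNF148 arrays above each of 3 siControl arrays, by 1.04 (2.06-fold, SE 0.29, adjusted p = 0.0113). This call lay at the fold threshold and was lost without siControl replicate 3 (0.96, adjusted p = 0.0493), with normexp background correction (0.73) and with the mean of the probes (0.71). A second DMD probe moved by 0.38 (adjusted p = 0.239), so the early rise of DMD was measured by 1 of 2 tested probes. DAG1, which has 1 tested probe, stood at 9.35, 9.37 and 9.27 in siControl and at 10.67, 10.68 and 10.76 in siZNF148. Its rise was 1.37 (2.59-fold, SE 0.28, adjusted p = 0.00087), again without overlap. The myotube genes were low in both groups at this time, with means per array of 3.62 to 3.99 in siControl and 3.76 to 3.84 in siZNF148, and none of the 6 was called.

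The other 6 genes were not called at 24 h. SGCB was lower in siZNF148 without overlap, by 0.28 (adjusted p = 0.00383), a change under 2-fold. SGCD differed by 0.38 (95% CI -0.22 to 0.98), SNTB1 by 0.29 (-0.13 to 0.72), DTNA by 0.17 (-0.24 to 0.59), SGCA by -0.10 (-0.37 to 0.16) and UTRN by 0.01 (-0.21 to 0.22). With siControl replicate 1 at 48 h in growth media left out of the fit, SGCD (adjusted p = 2.59e-05) and SNTB1 (adjusted p = 0.00932) passed the adjusted p threshold. Their changes stayed under 2-fold, and DTNA, SGCA and UTRN did not pass. In 6 of the 8 genes the arrays of the 2 groups did not overlap, as in 55.5% of all genes.

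At 48 h in growth media, 6 of the 8 genes were called higher (11.7% of all genes) and none lower (12.2%). The 2 others, SGCB and UTRN, rose by less than 2-fold. The median change of the 8 genes was 2.11, against -0.05 for all genes. Every gene was higher on each siZNF148 array than on each siControl array, a lack of overlap seen in 62.8% of all genes.

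DMD read 8.09, 6.15 and 6.47 on the siControl arrays and 9.50, 9.42 and 9.16 on the siZNF148 arrays, a rise of 2.46 (5.49-fold, SE 0.29, adjusted p = 4.11e-07). DAG1 read 11.81, 10.21 and 10.09 against 13.06, 12.98 and 13.13, a rise of 2.35 (5.10-fold, adjusted p = 4.33e-07). In both genes siControl replicate 1 lay well above its group, and without it the rises were 3.05 and 2.90.

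The sarcoglycans did not move by equal amounts. SGCD, delta-sarcoglycan, was at 11.39, 9.42 and 9.52 in siControl and at 12.77, 12.79 and 12.79 in siZNF148, a rise of 2.67 (6.38-fold, SE 0.29, adjusted p = 1.08e-07). SGCA, alpha-sarcoglycan, was at 15.22, 14.43 and 14.54 against 16.02, 16.04 and 15.90, a rise of 1.26 (2.39-fold, SE 0.13, adjusted p = 4.51e-08). SGCB, beta-sarcoglycan, rose by 0.57 (1.48-fold, SE 0.07, adjusted p = 5.50e-07). Without siControl replicate 1, the SGCD rise was 3.31 and the SGCA rise 1.50.

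SNTB1 and DTNA, which bind dystrophin in the cytoplasm, were both called higher. SNTB1, beta-1 syntrophin, was at 11.34, 10.08 and 10.06 in siControl and at 12.75, 12.53 and 12.59 in siZNF148, a rise of 2.13 (4.38-fold, SE 0.20, adjusted p = 2.02e-08). DTNA, alpha-dystrobrevin, was at 9.85, 8.75 and 8.57 against 11.06, 11.11 and 11.29, a rise of 2.09 (4.26-fold, SE 0.20, adjusted p = 1.67e-08). UTRN rose by 0.52 (1.44-fold, SE 0.10, adjusted p = 0.000208). The myotube genes, all 6 of which were called higher, had means per array of 16.05 to 16.17 in siZNF148, and the 5 genes of dividing cells were all called lower. The part of these shifts in the rise of the complex genes was not tested, and in whole cultures a change in the share of cells of a type cannot be told apart from a change in RNA per cell.

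At 96 h in growth media, 5 of the 8 genes were called higher (12.3% of all genes) and none lower (12.4%). DMD was at 6.92 and 6.95 in siControl and at 10.45, 10.50 and 10.18 in siZNF148. Its rise of 3.44 (10.9-fold, SE 0.33, adjusted p = 1.92e-08) was the largest of any of the 8 genes in the 5 knockdown comparisons. SGCD was at 10.20 and 10.22 against 12.87, 12.87 and 12.86, a rise of 2.65 (adjusted p = 6.22e-07). SNTB1 rose by 2.04 (adjusted p = 1.95e-07) and DTNA by 1.90 (adjusted p = 3.45e-07), each without overlap.

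DAG1 was at 11.15 and 10.93 in siControl and at 12.19, 12.08 and 12.26 in siZNF148 at this time. Its rise was 1.14 (2.20-fold, SE 0.31, adjusted p = 0.00502). Without siControl replicate 2, which leaves 1 array in that group, the rise was 1.03 and lost its call. SGCA was higher by 0.81 (1.76-fold, adjusted p = 6.39e-05), under the fold threshold. SGCB differed by -0.09 (95% CI -0.25 to 0.07). UTRN was lower by 0.30 (1.24-fold, adjusted p = 0.0366), with siControl at 11.28 and 11.10 and siZNF148 at 10.83, 10.98 and 10.84. The median over the 8 genes was 1.52, and arrays did not overlap in any of the 8, as in 74.9% of all genes.

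At 48 h in differentiation media, 5 of the 8 genes were called higher (15.1% of all genes) and none lower (17.3%), and the set was not that of growth media, since UTRN was called and DAG1 and SGCA were not. SNTB1 was at 10.36, 10.19 and 9.94 in siControl and at 12.51, 12.55 and 12.64 in siZNF148, a rise of 2.40 (5.28-fold, SE 0.20, adjusted p = 1.34e-09). DTNA was at 9.18, 8.90 and 8.82 against 11.33, 11.40 and 11.25, a rise of 2.36 (5.14-fold, adjusted p = 1.07e-09). These were the largest changes of the 8 genes in this comparison. SGCD rose by 1.69 (adjusted p = 3.17e-05) and DMD by 1.34 (adjusted p = 0.000499), with DMD at 7.52, 7.60 and 7.58 in siControl and at 8.91, 8.61 and 9.18 in siZNF148.

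UTRN was at 10.28, 10.57 and 10.65 in siControl and at 11.91, 11.77 and 11.92 in siZNF148 at 48 h in differentiation media. Its rise of 1.37 (2.58-fold, SE 0.10, adjusted p = 1.94e-10) was called with each of its 5 tested probes, whose changes ran from 1.37 to 1.82. This was the only one of the 5 knockdown comparisons in which UTRN was called. DAG1 was at 12.38, 11.86 and 11.50 against 12.65, 12.57 and 12.62, higher by 0.70 (1.63-fold, adjusted p = 0.0415). SGCB was higher by 0.66 (1.58-fold, adjusted p = 3.32e-08) and SGCA by 0.21 (95% CI -0.06 to 0.47). With siControl replicate 1 at 48 h in growth media left out of the fit, the adjusted p of SGCA was 0.011, still under 2-fold. Arrays did not overlap in any of the 8 genes, as in 70.2% of all genes.

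At 96 h in differentiation media, DMD alone was called, where 10.5% of all genes were called higher and 12.8% lower. It was at 8.37, 8.59 and 8.38 in siControl and at 10.69, 10.42 and 10.54 in siZNF148, a rise of 2.11 (4.31-fold, SE 0.29, adjusted p = 3.22e-06). SNTB1 was higher by 0.96 (1.94-fold, adjusted p = 0.00047), just under the fold threshold, and by 1.02 without siZNF148 replicate 2, which made it a call. DTNA was higher by 0.78 (adjusted p = 0.00233), SGCD by 0.71 (adjusted p = 0.0494), UTRN by 0.49 (adjusted p = 0.000391) and SGCA by 0.43 (adjusted p = 0.00829), all under 2-fold. With the adjusted p alone, 6 of the 8 genes were higher, against 24.9% of all genes.

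DAG1 ran the other way at this time. Its siControl arrays were at 12.59, 12.77 and 12.90 and its siZNF148 arrays at 12.00, 12.19 and 12.11. The siZNF148 arrays were all below the siControl arrays, by 0.65, but this missed the adjusted p threshold (adjusted p = 0.0624, 95% CI -1.24 to -0.07). With siControl replicate 1 at 48 h in growth media left out of the fit, the change was the same. Its adjusted p was then 0.00055 (SE 0.14), and it stayed under 2-fold. SGCB differed by -0.13 (-0.27 to 0.02). It was the only gene of the 8 whose arrays overlapped at this time, and 65.4% of all genes had no overlap.

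**Figure D2:**
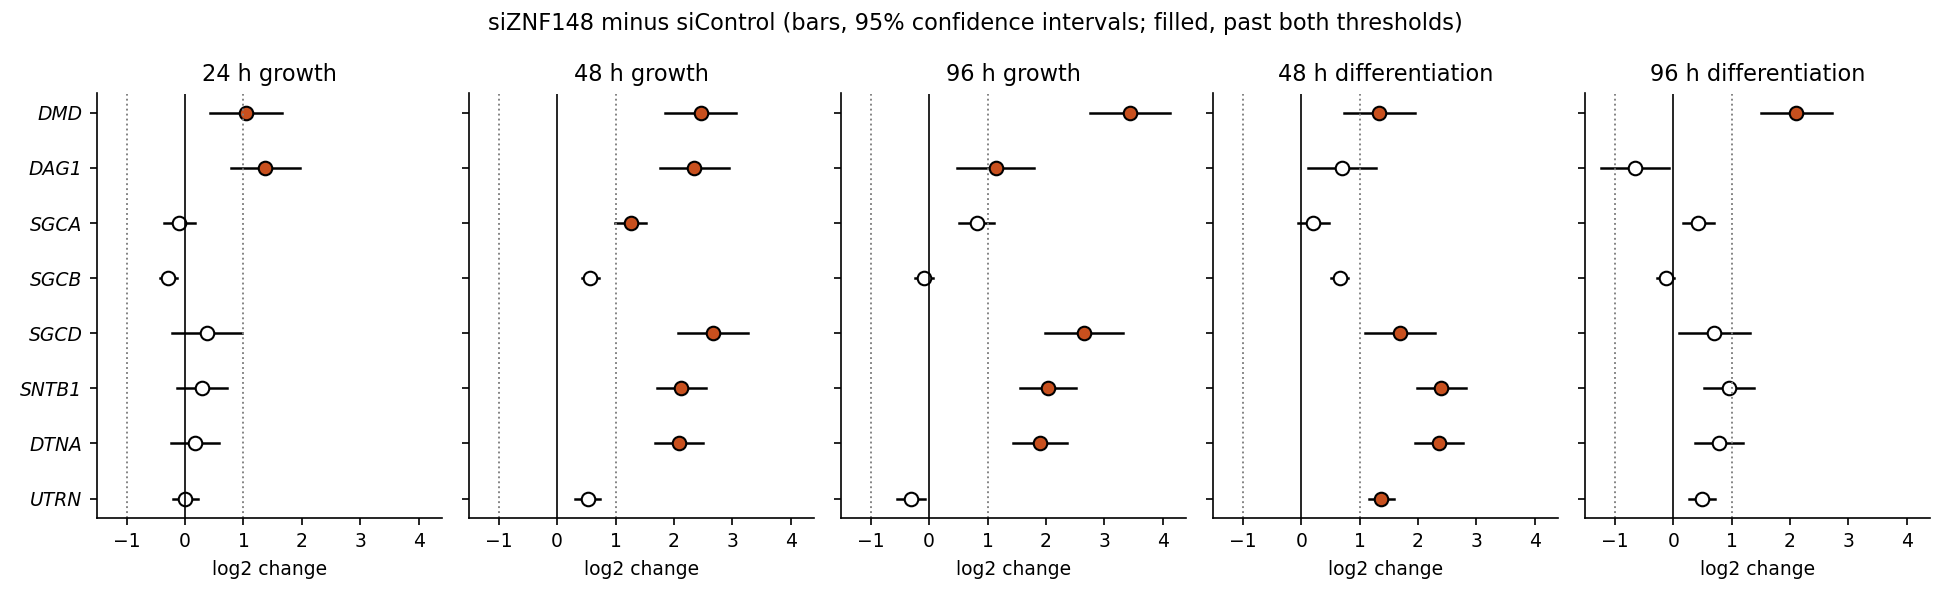
Change of each gene on knockdown (horizontal axes, log2, siZNF148 minus siControl) in the 5 comparisons; points are estimates, bars 95% confidence intervals, filled points calls, and dotted lines mark a 2-fold change. DMD is filled in all 5 panels, SGCB in none, UTRN only at 48 h in differentiation media, and DAG1 goes from 2.35 at 48 h in growth media to -0.65 at 96 h in differentiation media.

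The siControl cells in differentiation and in growth media were compared at equal labelled hours, and media and any difference in time since transfection cannot be told apart in these comparisons. At 96 h, 5 of the 8 were called higher than in growth media (6.81% of all genes), and none was called lower (8.26%). DAG1 rose by 1.71 (3.27-fold, adjusted p = 0.000174), DTNA by 1.64 (3.11-fold, adjusted p = 4.39e-06), SGCD by 1.52 (adjusted p = 0.000752), DMD by 1.51 (2.84-fold, adjusted p = 0.000941) and SNTB1 by 1.24 (adjusted p = 0.000178). SGCA was higher by 0.64 and SGCB by 0.31, both under 2-fold. The second DMD probe (0.74) and an SGCD probe (0.60) were also under 2-fold, so neither was called. Another SGCD probe (1.31) and the second DTNA probe (1.29) were called. UTRN was lower by 0.68 (1.60-fold, adjusted p = 7.26e-05), with 10.47, 10.54 and 10.52 in differentiation media against 11.28 and 11.10 in growth media. These comparisons use the same siControl arrays as the knockdown comparisons.

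At 48 h, 2 of the 8 genes were called higher in siControl cells in differentiation media (7.73% of all genes; 8.19% were called lower), SGCA by 1.17 (adjusted p = 1.32e-07) and DAG1 by 1.21 (adjusted p = 0.00136). Without siControl replicate 1 in growth media, 4 were called, with DMD at 1.26, SGCD at 1.26, DAG1 at 1.76 and SGCA at 1.42. With all arrays, the second DMD probe gave -0.35 and the second DTNA probe 0.80, neither called. Other SGCD probes gave 0.45, not called, and 1.30, called (adjusted p = 7.51e-09). The DAG1 call was lost without siControl replicate 2 (0.97) or 3 (0.90) in growth media, or replicate 1 in differentiation media (0.98). SNTB1 (-0.33) and DTNA (-0.09) did not pass, and their signs turned without siControl replicate 1 in growth media (0.09 and 0.30). UTRN was lower by 0.76 (1.69-fold, adjusted p = 3.13e-06), under the fold threshold, while 3 of its 4 other tested probes were called lower in this comparison.

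The tests of the differences between knockdown effects ask whether an effect itself changed with time or media. From 24 to 96 h in growth media the effect rose for 4 of the 8 genes (11.6% of all genes), and fell for none (11.2%). The difference was 2.40 for DMD (adjusted p = 0.000161), 2.27 for SGCD (adjusted p = 0.000243), 1.74 for SNTB1 (adjusted p = 9.91e-05) and 1.72 for DTNA (adjusted p = 8.09e-05). SGCA had a difference of 0.92 (adjusted p = 0.000616), under 2-fold. For DAG1 the difference was -0.24 (95% CI -1.12 to 0.64), an interval that allows a change in either direction. The rise of DMD and DAG1 at 24 h was known when the genes were chosen. As it enters these differences, the p-values and intervals of DMD and DAG1 here are not free of that choice. All arrays at 24 h were on a slide and in a scan of their own and came from subconfluent cultures, so that time, slide and density cannot be told apart here.

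At 96 h the effect of knockdown was smaller in differentiation media than in growth media for 5 of the 8 genes (6.94% of all genes) and larger for none (5.5%). The difference was -1.95 for SGCD (adjusted p = 0.00197), -1.79 for DAG1 (adjusted p = 0.00319), -1.34 for DMD (adjusted p = 0.0306), -1.12 for DTNA (adjusted p = 0.00794) and -1.08 for SNTB1 (adjusted p = 0.0124). The DMD difference lost its call without any 1 of 6 arrays, with values of -1.35 to -1.26 and adjusted p of 0.0581 to 0.0878, and the SNTB1 difference without siControl replicate 1 in growth media (-1.03, adjusted p = 0.0541). Without siControl replicate 1 at 48 h in growth media, an array outside these groups, all 5 differences kept their values and calls. The adjusted p was then 2.3e-05 for DMD and 8.43e-07 for SNTB1. For UTRN the effect was larger in differentiation media, by 0.80 (adjusted p = 0.000562), under 2-fold.

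At 48 h the effect was smaller in differentiation media for 3 of the 8 genes (9.03% of all genes) and larger for none (8.08%). The difference was -1.65 for DAG1 (adjusted p = 0.0025), -1.12 for DMD (adjusted p = 0.0435) and -1.05 for SGCA (adjusted p = 8.66e-05). Without siControl replicate 1 in growth media these were -2.20, -1.72 and -1.30, and SGCD was called too, at -1.62. The SGCA call was lost without siControl replicate 2 (-0.90) or 3 (-0.95) in growth media, and the DMD call without any 1 of 9 arrays (-1.14 to -0.75). SNTB1 and DTNA each differed by 0.27 (adjusted p = 0.556 and 0.546), and UTRN by 0.85 (adjusted p = 8.87e-05), again under 2-fold. The 4 other tested UTRN probes were all called in this difference, at 1.05, 1.10, 1.34 and 1.38. The effect on UTRN was thus larger in differentiation media by all 5 probes, and by more than 2-fold with 4 of them. For SNTB1 and DTNA the sign turned without siControl replicate 1 in growth media (-0.15 and -0.13).

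Over all 10 groups the mean level of DMD ran from 6.43 ± 0.16 (SD, n = 3) in siControl at 24 h to 10.55 ± 0.13 in siZNF148 at 96 h in differentiation media. Its order from the top was siZNF148 at 96 h in differentiation and then growth media, siZNF148 at 48 h in growth and then differentiation media, siControl at 96 and 48 h in differentiation media, siZNF148 at 24 h, and siControl at 96, 48 and 24 h in growth media. Neighbours overlapped for the first and second groups, the third and the fourth groups, and the last 3 groups. Through its replicate 1 (8.09), siControl at 48 h in growth media also overlapped 2 groups that were not its neighbours. These were siZNF148 at 24 h (7.45 to 7.51) and siControl at 48 h in differentiation media (7.52 to 7.60). Thus every siZNF148 group except that at 24 h lay above every siControl group for DMD. In this order, and in the orders, spans and correlations below, the 24 h groups also differed from the others in slide and scan.

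The order of DAG1 was different. It was highest in siZNF148 at 48 h in growth media (13.05 ± 0.08), and the second group was siControl at 96 h in differentiation media (12.75 ± 0.16), which overlapped with siZNF148 at 48 h in differentiation media. It was lowest in siControl at 24 h (9.33 ± 0.05), while siZNF148 at 24 h (10.67 to 10.76) overlapped with siControl at 48 h in growth media. This overlap came from siControl replicate 1 (11.81). The other arrays of that group (10.21 and 10.09) lay below every siZNF148 array at 24 h.

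UTRN spanned the groups from 10.50 ± 0.20 in siControl at 48 h in differentiation media to 11.87 ± 0.08 in siZNF148 at the same time and media. The top 2 groups, both siZNF148 at 48 h, overlapped each other and lay above all others. The next 6 groups formed a chain in which each overlapped its neighbour, and siControl at 48 and 96 h in differentiation media lay below them.

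SGCD, SNTB1 and DTNA shared their top 4 groups, siZNF148 at 48 and 96 h in either media, and their lowest, siControl at 24 h. SGCD ran from 9.30 to 12.87, SNTB1 from 9.31 to 12.62 and DTNA from 8.43 to 11.33 as group means. SGCA ran from 14.18 to 16.32, and its 6 highest groups formed a chain of overlapping neighbours. SGCB, with a span of 1.35 from 10.98 to 12.33, was lowest in siZNF148 at 24 h, as was SGCA.

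Across the 10 group means, the correlation of SNTB1 with DTNA was 0.99 and with SGCD 0.98, and that of DMD with SGCD 0.93, as a description over points that share a fit and a normalization. DAG1 and DMD correlated at 0.74, and UTRN with each of the 7 other genes at -0.03 to 0.33. Among 16212 genes, those with the profile most like DMD over the 10 group means included PLAAT2 (0.98) and SPIRE1 (0.98). For DAG1 they were FNDC5, MEGF10 and DOK3 (all 0.98), and for UTRN they were MAP2K1 (0.96), DEK (0.95) and KIF24 (0.95).

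**Figure D3:**
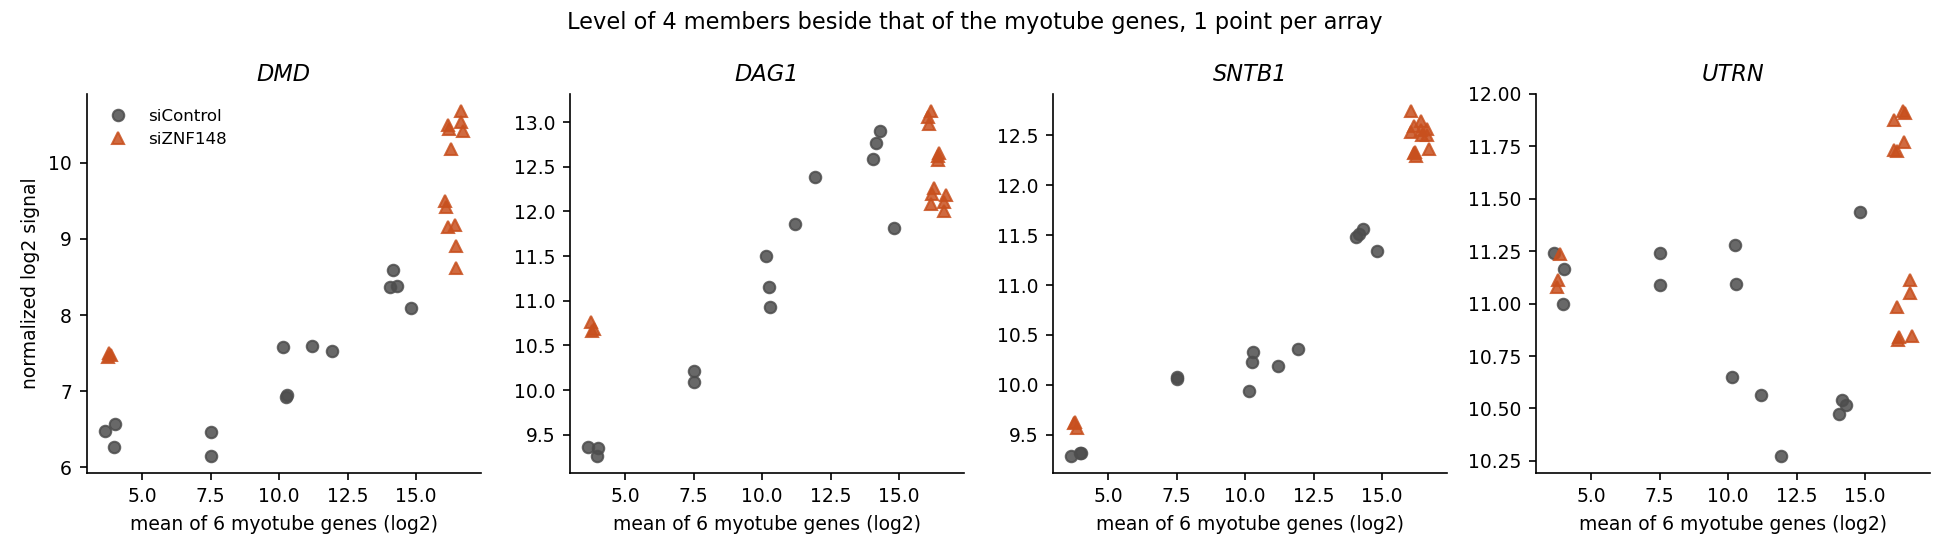
Normalized log2 signal of DMD, DAG1, SNTB1 and UTRN (vertical axes) against the mean log2 signal of 6 myotube genes (horizontal axes), 1 point per array; circles are siControl and triangles siZNF148. At 24 h the siZNF148 triangles at the left lie above the siControl circles for DMD (7.45 to 7.51 against 6.26 to 6.56) and DAG1 at a like level of the myotube genes, and the UTRN points show no common rise.

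The siControl array that stood apart lay near, but outside, the range of siControl at 96 h in differentiation media in its myotube genes and SNTB1. It was above that group in the myotube genes (14.82 against 14.05 to 14.30) and below it in SNTB1 (11.34 against 11.48 to 11.56). Its DMD value of 8.09 was below the 8.37 to 8.59 of that group, and its DAG1 value of 11.81 was below 12.59 to 12.90. Its UTRN value of 11.44 was above 10.47 to 10.54. Its mean over the 5 genes of dividing cells was 11.40, far above the 8.59 to 8.63 of that group. The other arrays of its own group gave 11.88 and 12.01.

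Genes of other cell types were looked at beside these results. Among fibroblast markers DCN, LUM, THY1 and PDGFRA were well above background on all 29 arrays, and their list had means per array of 9.74 to 9.79 in siControl and 9.60 to 9.93 in siZNF148 at 24 h, where none of the 5 genes was called. At the later times 2 or 3 of the 5 were called lower and none higher. Of 3 smooth muscle genes tested, 1 was called lower at 24 h, and 2 or 3 were called higher at the later times. The adipocyte genes PLIN1, FABP4 and LPL were not tested, each being well above background on at most 1 array. ADIPOQ, from the same list, was well above background on 4 arrays and was not called on knockdown. Of 4 endothelial genes, none was called at 24 h and 1 or 2 were called lower at the later times. In that list 1 was called higher at 96 h in differentiation media. Of 3 blood genes, none was called at 24 h and 1 was called lower at each later time. The part of these genes in the results was not tested.

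Several genes had more than 1 tested probe. The second DMD probe was called higher at each time after 24 h, with changes of 1.33, 3.02, 1.08 and 2.30, and the third, well above background on 1 array, was not tested. The second probe's differences between media were -0.26 at 48 h and -0.73 at 96 h, neither called, unlike those of the first probe. Of the 3 SGCD probes, 2 moved alike and the third rose by 1.25 at 48 h in growth media, was higher by 0.60 at 96 h, and was lower by 0.44 (adjusted p = 0.00299) at 48 h in differentiation media. The rise of SGCD in differentiation media was thus measured by 2 of 3 probes. Both DTNA probes were called in the same 3 knockdown comparisons, and all 5 UTRN probes in the same 1. The differences between effects were less alike. The second DTNA probe gave 1.12 (adjusted p = 0.118) for 96 against 24 h and -1.08 (adjusted p = 0.164) for media at 96 h, neither called, and the SGCD probe that stood apart gave 0.45 and -0.88, both under 2-fold. The second DTNA probe was well above background on 20 of 29 arrays.

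**Figure D4:**
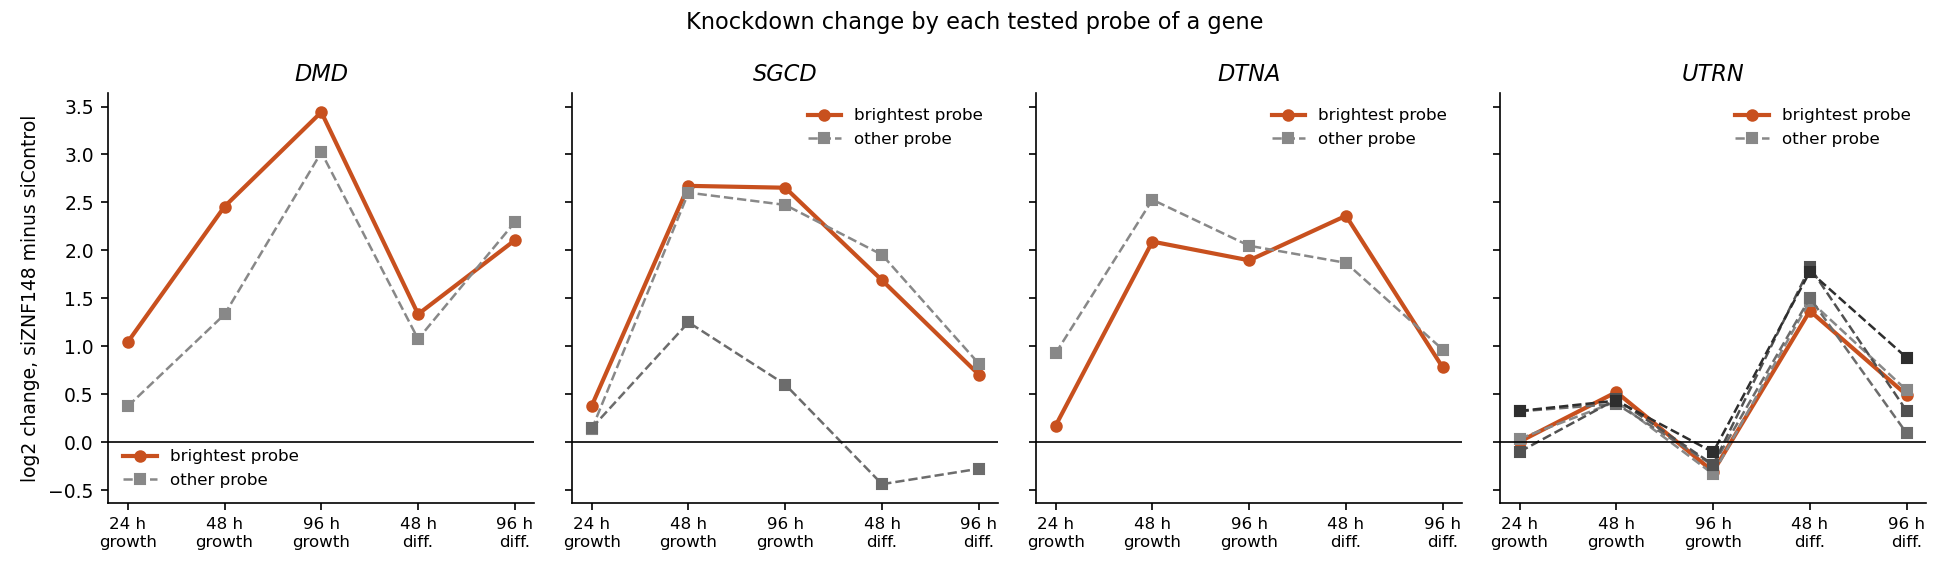
Change on knockdown (vertical axis, log2, siZNF148 minus siControl) by each tested probe of DMD, SGCD, DTNA and UTRN in the 5 comparisons (horizontal axes); the thick line is the probe that stands for the gene, dashed lines the others. The 5 UTRN probes peak together at 48 h in differentiation media (1.37 to 1.82), and 1 SGCD probe falls below 0 in differentiation media (-0.44 and -0.28).

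Arrays of both treatments shared slides, and the knockdown changes were also taken within slides. At 48 h in growth media the DMD change was 1.33 to 3.04 on 3 slides, that of DAG1 1.17 to 2.97, that of SGCD 1.40 to 3.37, that of SNTB1 1.19 to 2.69 and that of DTNA 1.25 to 2.54, the lowest being on the slide with siControl replicate 1. At 48 h in differentiation media the ranges were 1.09 to 1.59 for DMD, 0.19 to 1.15 for DAG1, 2.19 to 2.56 for SNTB1 and 1.26 to 1.50 for UTRN. At 96 h in differentiation media they were 2.04 to 2.07 for DMD and -0.71 to -0.57 for DAG1 on 2 slides. At 96 h in growth media 1 slide held both treatments, with 3.56 for DMD and 1.04 for DAG1.

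The remaining subunits of the complex were read from a list of 11 genes, 8 of them tested. At 24 h none was called. At 48 and 96 h in growth media 2 and 3 were called higher and 1 lower, and in differentiation media 2 were higher and 1 lower at both times. SSPN, sarcospan, which stabilizes the sarcoglycans at the membrane, rose by 1.80 and 1.79 at 48 and 96 h in growth media and was higher by 0.77 and 0.53 in differentiation media, under 2-fold.

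Among the syntrophins, SNTB2 fell where SNTB1 rose. SNTB2 was lower by 0.75 at 24 h, under 2-fold, and it fell by 2.25 and 2.62 at 48 and 96 h in growth media and by 2.49 and 1.99 in differentiation media (adjusted p of 3.21e-10 at most), without overlap. DRP2, dystrophin-related protein 2, was lower by 0.67 at 24 h, under 2-fold, and rose by 1.18 at 96 h in growth media. SGCE, epsilon-sarcoglycan, was called in none of the 5 knockdown comparisons, with changes of -0.64 to 0.39. SGCZ and DTNB were well above background on at most 1 array of any group. SNTG1, SNTG2 and NOS1 had probes but were not tested.

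**Figure D5:**
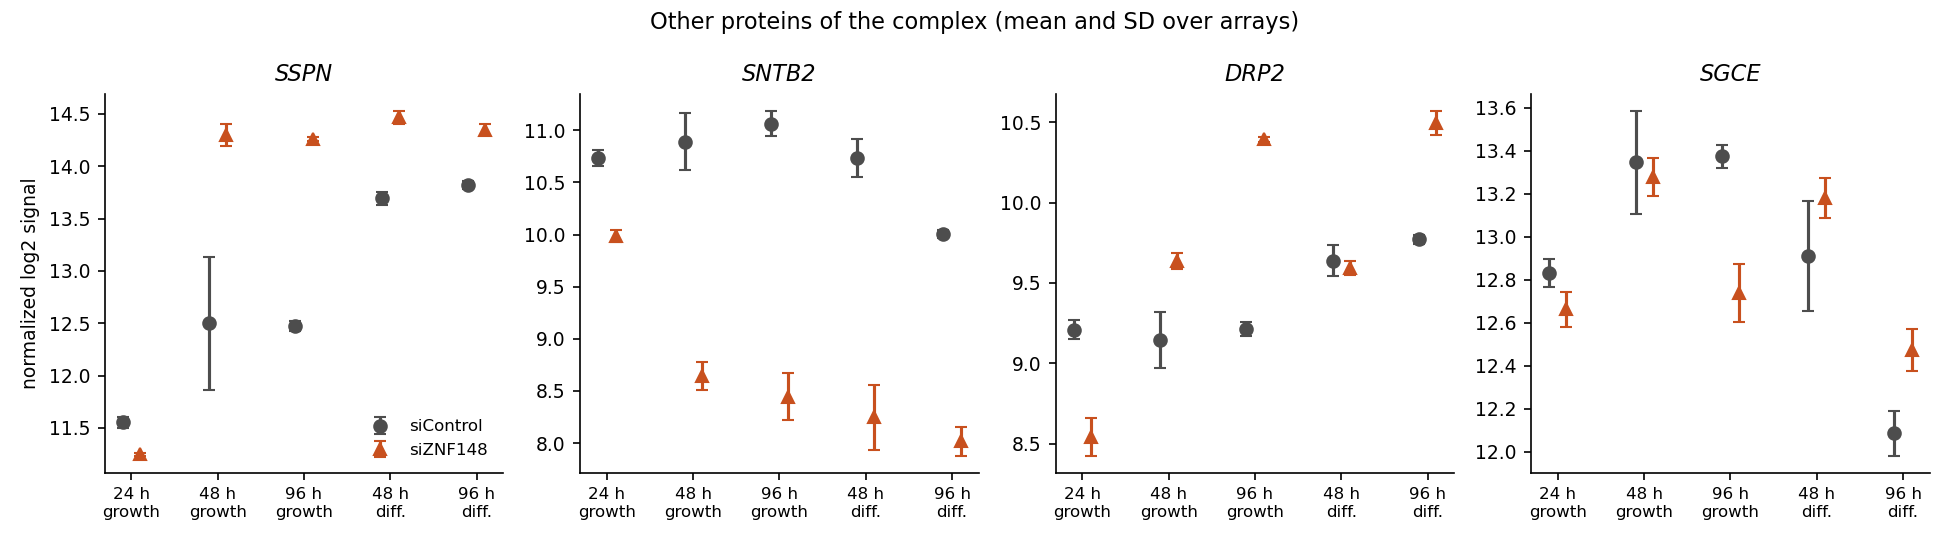
Normalized log2 signal (vertical axes) of SSPN, SNTB2, DRP2 and SGCE by time and media (horizontal axes); points are group means, bars SD over the 3 arrays of a group (2 for siControl at 96 h in growth media). SSPN at 96 h in growth media is at 12.47 in siControl and 14.26 in siZNF148, and SNTB2 is lower in siZNF148 at every time.

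The matrix ligands of dystroglycan moved in both directions. None of 11 genes was called at 24 h, and 4, 2, 1 and 1 were called higher and 1 lower in each of the 4 later comparisons, in the order given above. LAMB1, a laminin beta chain, fell by 1.12 at 96 h in growth media and by 1.38 and 1.50 in differentiation media. LAMA1 fell by 1.51 at 48 h in growth media, where LAMA5 rose by 1.23 and HSPG2 (perlecan) by 1.11. AGRN, agrin, the ligand that clusters receptors at the synapse, rose by 2.11 at 96 h in growth media. LAMA2, the laminin chain of mature muscle, differed by -0.46 to 0.56 and was not called in any of the 5.

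A list of 19 genes was read for the glycosylation of dystroglycan, which yields the sugar chain by which dystroglycan holds laminin. Of these, 1, 3, 1, 2 and 0 were called higher and 0, 0, 0, 4 and 1 lower across the 5 comparisons. POMK, the kinase of that chain, was the early one, at 7.21 ± 0.49 in siZNF148 against 5.54 ± 0.26 in siControl at 24 h (n = 3 each), a rise of 1.67 (adjusted p = 5.82e-06). It rose by 1.03 at 48 h in growth media and by 1.41 at 48 h in differentiation media. POMGNT2 rose by 1.35 and 1.13 at 48 and 96 h in growth media. In differentiation media at 48 h GMPPA rose by 1.38. POMT2 fell by 1.24 at 96 h in differentiation media.

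Among 14 membrane and cytoskeletal partners, 0, 7, 6, 2 and 3 were called higher across the 5 comparisons, and 1 was called lower at 48 and at 96 h in growth media. CAV3, the muscle caveolin that binds dystroglycan, rose by 2.96 and 3.29 in growth media and by 1.97 at 96 h in differentiation media. DYSF, dysferlin, a protein of membrane repair, rose by 3.11 and 2.43 in growth media and by 2.61 at 48 h in differentiation media. DES, desmin, rose by 2.14, 1.98, 1.32 and 1.12 in the 4 later comparisons. ANK3, an ankyrin, rose by 2.14 at 96 h in differentiation media. Like most of the complex genes, none of these 4 was called at 24 h.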

How the data were processed

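RNA of LHCN-M2 cells was hybridized by the authors to 29 one-colour (Cy3) Agilent arrays of 1 design, and intensities were extracted with Feature Extraction 10.7.3.1 per the file headers. The authors deposited these scanner intensities and log2 values that they had quantile normalized. The deposited log2 values are used here; each array's column had a median of 4.28 and correlated at 0.999998 or more with quantile-normalized scanner intensities. Quantile normalization gives every array 1 distribution, so a shift common to all genes cannot be seen. The number of arrays limits the precision, and p-values measure the spread between arrays within groups, pooled over all 10 groups. An array that stands apart in its group thus acts on comparisons it is not part of. Without siControl replicate 1 at 48 h in growth media, the SE of DMD at 24 h was 0.13 in place of 0.29.

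Probes were named through RefSeq accessions (GRCh38.p14 table), 31104 of 58201 probes and 22439 genes. The 38714 probes that stood well above background on 2 or more of the arrays entered 1 fit of 10 group means with limma 3.58.1 (lmFit and eBayes, R 4.3.3). Calls needed a Benjamini-Hochberg adjusted p under 0.05 and more than 2-fold. The tested probe of highest mean signal stands for its gene. A few genes that entered the counts of lists are not reported here. The 8 genes are named in full; of each other list, up to 3 called genes with the largest change in each comparison were named, and any others named here were chosen after their values were seen. The 8 genes and the lists were chosen with earlier results of these data known. Alternatives covered scaling and background (75th percentile, normexp with an offset of 50), filters, thresholds, probe choice, array weights, slide and replicate blocks, the methods' t-test and leaving out arrays. The script was tested on simulated data. Figures were drawn with Python 3.11.15.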

Additional observations from a re-analysis of the deposited data

Results flagged for a closer look

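Knockdown effects that differed between times or media by a test of the difference itself passed the adjusted p and the 2-fold threshold for 6 of the 8 genes by the probe that stands for each. For UTRN that probe gave 0.85 for media at 48 h (adjusted p = 8.87e-05), under 2-fold, and the 4 other tested UTRN probes were called. The DMD effect was larger at 96 h than at 24 h in growth media by 2.40 (adjusted p = 0.000161), and was smaller in differentiation media than in growth media with a difference of -1.12 at 48 h (adjusted p = 0.0435) and one of -1.34 at 96 h (adjusted p = 0.0306). These DMD differences between media lost the call in 13 of 24 and in 7 of 24 alternatives, and the second DMD probe gave -0.26 (adjusted p = 0.599) and -0.73 (adjusted p = 0.1075), neither called. The DAG1 effect was smaller in differentiation media at 48 h (-1.65, adjusted p = 0.0025), and at 96 h the difference was -1.79 (adjusted p = 0.00319). The SGCA effect was smaller in differentiation media at 48 h (-1.05, adjusted p = 8.66e-05). The SGCD effect was larger at 96 h than at 24 h in growth media (2.27, adjusted p = 0.000243) and smaller in differentiation media at 96 h (-1.95, adjusted p = 0.00197), both called by 2 of its 3 probes. The SNTB1 effect was larger at 96 h than at 24 h (1.74, adjusted p = 9.91e-05) and smaller in differentiation media at 96 h (-1.08, adjusted p = 0.0124). The DTNA effect was larger at 96 h than at 24 h (1.72, adjusted p = 8.09e-05) and smaller in differentiation media at 96 h (-1.12, adjusted p = 0.00794), neither of which the second DTNA probe called. Each is a limma test on log2 values over all tested probes. The DMD difference from 24 h uses a rise that was known when the genes were chosen.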

How the results depend on the processing

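Of the called results for single genes, 495 kept direction and call and 13 lost the call under alternatives other than leaving out an array, and none reversed; with 1 array left out, 285 kept it and 23 lost it. With no fold threshold a call cannot be lost, and the scanner intensities quantile-normalized again were nearly the deposited values. Part of the 495 was thus fixed in advance. The count of genes changed at 24 h was 1 with normexp background correction and with the mean of the probes. That at 96 h in differentiation media was 2 with 75th percentile scaling and 6 with no fold threshold. For differentiation media in siControl cells, the count at 48 h was 1 with only the arrays of the comparison and 1 with the methods' t-test, unadjusted or after Benjamini-Hochberg, and 4 with array weights; at 96 h it was 8 with no fold threshold. The count of effects that differed between media at 48 h was 1 with only the arrays of the comparison. With 1 array left out, the counts ran from 1 to 2 at 24 h, 6 to 6, 4 to 5, 5 to 5 and 1 to 2 in the other knockdown comparisons (48 and 96 h growth, 48 and 96 h differentiation media), 1 to 4 and 5 to 5 for media at 48 and 96 h, and 4 to 4, 1 to 4 and 3 to 5 for the differences (96 against 24 h, media at 48 h, media at 96 h); leaving out a siControl array at 96 h in growth media leaves 1, assumed to vary like the other groups. Results that were not called changed sign in these cases: at 24 h, SGCA with 75th percentile scaling (0.025), and UTRN with normexp (-0.000946) and without siControl replicate 3 (-0.063) or siZNF148 replicate 2 (-0.040), with -0.063 to 0.061 over the arrays left out; for media at 48 h, DTNA with array weights (0.10), the mean of the probes (0.36) and without siControl replicate 1 in growth media (0.30, over a range of -0.34 to 0.30), and SNTB1 without that array (0.094, -0.55 to 0.094); for the difference between media at 48 h, SNTB1 with array weights (-0.017) and without that array (-0.15, -0.15 to 0.49), and DTNA with the mean of the probes (-0.19) and without that array (-0.13, -0.13 to 0.51); and for the difference at 96 h, SGCB with 75th percentile scaling (0.030). The causes were not tested. Replicate numbers were not shown to pair samples, same-numbered arrays correlating at -0.16 to 0.12; the titles were followed for the siZNF148 arrays at 48 h in growth media, whose descriptions give other numbers, and the lowest correlation is from that comparison; with the replicate number as a block the counts were 2, 6, 5, 5 and 1 for knockdown, 2 and 5 for media, and 4, 3 and 5 for the differences, the counts without it. With the slide as a block, 4 effects differed between media at 96 h. Scaling to the 75th percentile moved the median of all genes at 48 h in differentiation media from -0.05 to 0.05.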
